A study of Mus musculus with 3 samples.

Results

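The genes described here are 10 non-collagen genes of the extracellular matrix among the 23421 gene symbols of the table. They are *Mgp*, *Sparc* and *Igfbp7*, which encode secreted matricellular proteins, *Dcn*, *Lum* and *Bgn*, which encode small leucine-rich proteoglycans, and *Fbn1*, *Mfap2*, *Mfap5* and *Fbln1*, which encode proteins of microfibrils and elastic fibres. They were taken by symbol, and all 10 were found. The list was drawn up because *Mgp*, *Igfbp7*, *Mfap5* and *Sparc* were much higher in tw18/tw18 embryos than in wild type. The values of that comparison are therefore a description of how the list was chosen, and nothing is supported with them.

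Microfibrils are extracellular filaments whose backbone is fibrillin, and the microfibril-associated glycoproteins and fibulins bind along them. They carry elastin where elastic fibres form, and they hold latent TGF-beta in the matrix. Small leucine-rich proteoglycans bind collagen fibrils and growth factors. Matricellular proteins are secreted into the matrix and affect how cells attach to it, without being structural filaments. In mouse development SPARC is abundant in parietal endoderm and other basement membrane-forming tissues, whereas decorin, lumican and fibrillin-1 are typical products of mesenchyme, fibroblasts and uterine stroma.

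RNA was measured in 3 libraries of E6.5 embryos, 1 each of wild type, tw18/+ and tw18/tw18. The labels give the strain as 129/SvEv and the embryos as offspring of tw18/+ matings, and the study raises the possibility that genetic background differed among its embryos. The tw18 haplotype carries a large deletion on Chr 17 that removes *Ppp2r1a* together with many neighbouring genes, so tw18/tw18 embryos lack all of these and tw18/+ embryos have 1 copy. The labels call the tissue epiblast, and the methods describe it as the embryo proper with its surrounding visceral endoderm. How many embryos were pooled for a library is not given in the sources used here. With 1 library per genotype there is no replicate check, and no p-value is given for any difference.

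Values are FPKM, fragments scaled to transcript length and to library size, so levels can be compared between genes. Between libraries they are relative to the rest of each library, whose FPKM sums were 444064 in wild type, 455078 in tw18/+ and 383409 in tw18/tw18. *Ppp2r1a* had 146 FPKM in wild type, 81.7 in tw18/+ and 12.8 in tw18/tw18, the order of the labels, although it is deleted on both chromosomes in the last; the source of these remaining fragments was not tested. Weakly expressed genes take values at regular steps, each the worth of 1 fragment, which put the depth at 1.41 times that of wild type in tw18/+ and 1.39 times in tw18/tw18. Of the low values used, 77.9% to 78.4% lay within 0.2 of a whole number, so fragment numbers are approximate. The tw18/tw18 library stands apart in that *Lars2*, with 11199 FPKM in wild type and 9689 in tw18/+, was listed at 0 there. Genes of the epiblast were present in every library, and so were genes of visceral endoderm, decidua and trophoblast, whose values are given further on. In bulk RNA, more cells of a type and more RNA per cell cannot be told apart.

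Together the 10 genes had a summed FPKM of 210.4 in wild type, 275 in tw18/+ and 744 in tw18/tw18. *Sparc* made up 64.5%, 58.1% and 48.1% of these sums. Of the 10 genes, 9 had their highest value in tw18/tw18, and only *Mfap2* had its lowest there. None of the 10 was listed at 0 in a library.

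**Figure D1:**
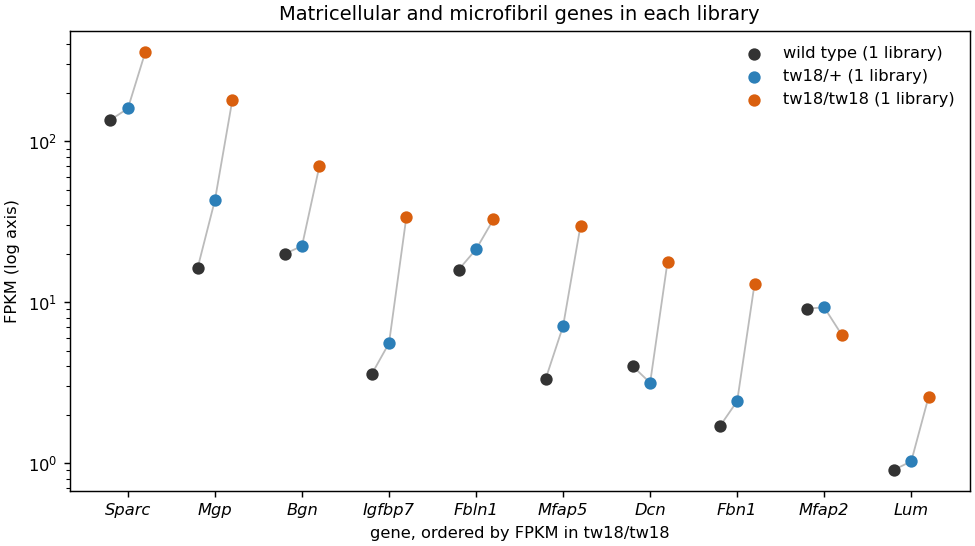
FPKM on a log axis of the 10 genes in the wild-type, tw18/+ and tw18/tw18 libraries, 1 point per library, ordered by the value in tw18/tw18. The tw18/tw18 point is the highest for every gene except *Mfap2*, which goes from 9.12 in wild type to 6.28 in tw18/tw18.

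*Sparc*, which encodes a calcium- and collagen-binding glycoprotein, lies on Chr 11 from 55394500 to 55423183 (GRCm38, minus strand). It was the most abundant of the 10 genes, with 136 FPKM in wild type, 159.6 in tw18/+ and 358 in tw18/tw18. It ranked 482 among all genes in wild type, 405 in tw18/+ and 138 in tw18/tw18. The 2 lower values lie close to each other and the tw18/tw18 value stands apart, at 2.63 times wild type and 2.24 times tw18/+. *Sparc* therefore has the smallest ratio of the 4 genes that prompted the list but the largest difference in FPKM of all 10.

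*Mgp* encodes matrix Gla protein, a vitamin K-dependent inhibitor of calcification. It lies on Chr 6 from 136872435 to 136875823 and has 1 coding transcript of 617 bases. Its FPKM was 16.2 in wild type, 43.0 in tw18/+ and 180.2 in tw18/tw18. All 3 libraries are apart: the log2 ratio was 1.41 for tw18/+ and 3.48 for tw18/tw18 against wild type, and 2.07 for tw18/tw18 against tw18/+. About 112, 420 and 1732 fragments lay behind these values, and the 95% interval from these numbers was 1.10 to 1.72 for tw18/+ against wild type. Such intervals cover counting error only, treat PCR copies as separate fragments and leave out the spread between embryos.

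*Igfbp7* encodes a secreted protein that binds insulin-like growth factors weakly and is found around blood vessels and in uterine stroma. It lies on Chr 5 from 77349240 to 77408041. Its FPKM was 3.56 in wild type, 5.56 in tw18/+ and 33.97 in tw18/tw18, a log2 ratio of 3.26 in tw18/tw18 and 0.64 in tw18/+ against wild type. The interval of the tw18/+ ratio, 0.18 to 1.14, includes values past the threshold of 1 used below. Of the 1209 exonic bases of *Igfbp7*, 85 are shared with *Polr2b* on the opposite strand, at 53.6, 61.4 and 43.1 FPKM over the 3 genotypes. The part of this overlap in the values was not tested.

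The 3 small leucine-rich proteoglycans were led by *Bgn*, which encodes biglycan. It lies on Chr X from 73483602 to 73495933. Its FPKM was 19.9 in wild type, 22.3 in tw18/+ and 69.9 in tw18/tw18, a log2 ratio of 1.81 in tw18/tw18 against wild type and of 0.16 in tw18/+. Wild type and tw18/+ lie close together and tw18/tw18 is apart from both.

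*Dcn*, for decorin, and *Lum*, for lumican, are neighbours on Chr 10, at 97479609 to 97518143 and 97565128 to 97572703, both on the plus strand. *Dcn* had 3.996 FPKM in wild type, 3.15 in tw18/+ and 17.8 in tw18/tw18. It was the only one of the 10 genes that was lower in tw18/+ than in wild type, by a log2 ratio of -0.34 with an interval of -0.76 to 0.073 that includes 0. *Lum* was the least abundant gene, with 0.907, 1.02 and 2.59 FPKM over the 3 genotypes and estimates of 31, 49 and 122 fragments. The log2 ratio of tw18/tw18 against wild type was 2.16 for *Dcn* and 1.51 for *Lum*, the latter with an interval of 0.92 to 2.12. *Kera* and *Epyc*, the next small leucine-rich genes downstream of *Lum* on the same strand, were listed at 0 in all 3 libraries, so that *Dcn* and *Lum* were the only genes of this cluster with a value.

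*Fbn1* encodes fibrillin-1, the backbone of microfibrils, and lies on Chr 2 from 125300594 to 125507993. Its FPKM was 1.69 in wild type, 2.43 in tw18/+ and 13.0 in tw18/tw18. The transcript is long, so that these low values rest on about 295, 600 and 3166 fragments, and the log2 ratio of 2.95 in tw18/tw18 against wild type has an interval of 2.78 to 3.12. All 3 libraries are apart by counting error, with a log2 ratio of 0.52 (0.32 to 0.73) for tw18/+ against wild type. Of its 12128 exonic bases, 2442 are shared with *Gm9913* on the opposite strand.

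*Mfap5* and *Mfap2* encode the paired microfibril-associated glycoproteins MAGP-2 and MAGP-1, which both bind fibrillin. *Mfap5*, on Chr 6 from 122505845 to 122529290, had 3.34 FPKM in wild type, 7.10 in tw18/+ and 29.8 in tw18/tw18. Its log2 ratio against wild type was 3.16 in tw18/tw18 and 1.09 in tw18/+. *Mfap2*, on Chr 4 from 141010418 to 141015984, had 9.12, 9.27 and 6.28 FPKM over the 3 genotypes. The wild-type and tw18/+ values of *Mfap2* are nearly alike, and its log2 ratio in tw18/tw18 was -0.54 against wild type, with an interval of -0.92 to -0.17. The more abundant of the pair was therefore *Mfap2* in wild type and in tw18/+, and *Mfap5* in tw18/tw18; in tw18/+ the counting intervals of the pair overlap.

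*Fbln1* encodes fibulin-1, a calcium-binding glycoprotein of elastic fibres and basement membranes. It lies on Chr 15 from 85205949 to 85286535. Its FPKM was 15.9 in wild type, 21.3 in tw18/+ and 32.7 in tw18/tw18. The steps were of similar size, a log2 ratio of 0.42 from wild type to tw18/+ and of 0.62 from tw18/+ to tw18/tw18, and the ratio of 1.04 between tw18/tw18 and wild type was the smallest of the 9 that were above 0.

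**Figure D2:**
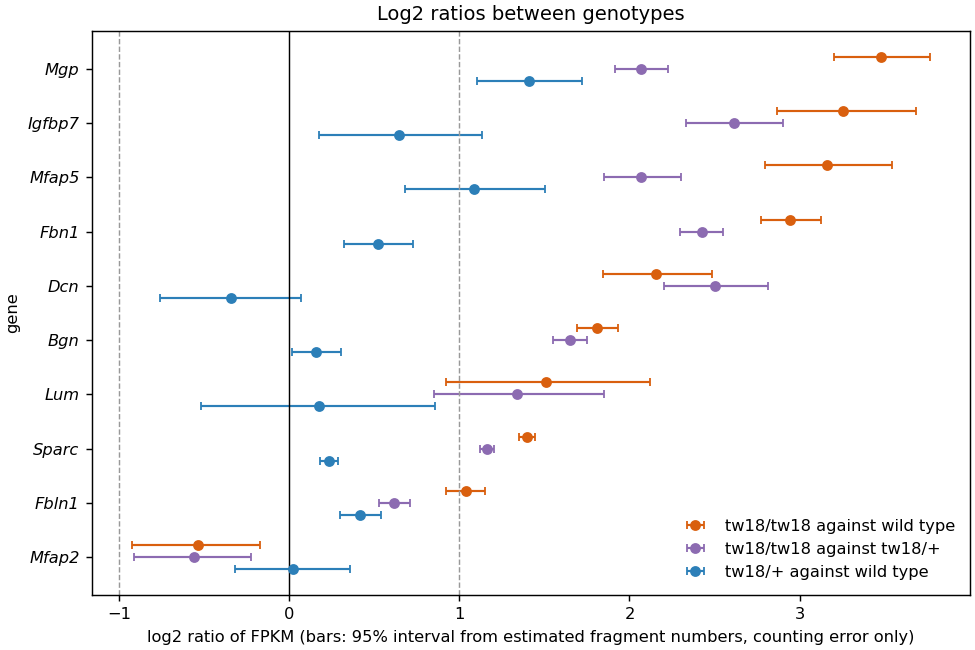
Log2 ratios of FPKM for the 3 comparisons between genotypes, 1 row per gene, with 95% intervals from estimated fragment numbers that cover counting error only; dashed lines mark log2 ratios of -1 and 1. The ratios of tw18/tw18 against wild type run from -0.54 for *Mfap2* to 3.48 for *Mgp*, and those of tw18/+ against wild type from -0.34 for *Dcn* to 1.41 for *Mgp*.

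The order of the levels also changed between the libraries. In wild type *Sparc* was followed by *Bgn*, *Mgp* and *Fbln1*, whose neighbouring counting intervals overlap, then by *Mfap2*, by *Dcn*, *Igfbp7* and *Mfap5*, which overlap as well, and by *Fbn1* and *Lum*. In tw18/+ *Mgp* stood second with an FPKM of 43.0, above *Bgn* and *Fbln1*, which overlap, and *Dcn* stood below *Mfap5* and *Igfbp7*. In tw18/tw18 the order was *Sparc*, *Mgp* and *Bgn*, each apart from the next, then *Igfbp7*, *Fbln1* and *Mfap5*, whose neighbouring intervals overlap, and *Dcn*, *Fbn1*, *Mfap2* and *Lum*. *Igfbp7* thus went from rank 9282 of all genes in wild type to 2083, *Mfap5* from 9447 to 2452 and *Mgp* from 4483 to 282, while *Mfap2* went from 6422 to 8037.

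A gene was called higher or lower when its log2 ratio was at least 1 in either direction and the larger of both values was at least 1 FPKM. Between tw18/tw18 and wild type, 9 of the 10 genes were called higher and 0 lower, where 15.1% of 12917 genes were higher and 6.94% lower. This is the comparison that the list was chosen on, and *Fbln1*, at 1.04, was the called gene nearest to the threshold. The median difference of log2(FPKM + 1) was 1.84, against -0.0074 over all genes tested, and 1.38 over the 6 genes that were not named as the reason for the list. With a pseudocount of 1, which lowers the ratio of weakly expressed genes, *Fbln1* (0.99) and *Lum* (0.91) lay under the threshold.

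Between tw18/tw18 and tw18/+, 8 of the 10 genes were called higher and 0 lower, where 14.9% of 12846 genes were higher and 5.65% lower. This comparison uses the same tw18/tw18 library as the choice of the list. *Fbln1* and *Mfap2* were the 2 genes not called. *Igfbp7* had the largest log2 ratio (2.61), followed by *Dcn* (2.50) and *Fbn1* (2.42), and the median difference of log2(FPKM + 1) was 1.77 against 0.0047 over all genes tested.

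Between tw18/+ and wild type, *Mgp* and *Mfap5* were called higher, 2 of the 10 genes, and 0 were lower, where 4.7% of 12426 genes were higher and 5.02% lower. Both are among the genes named as the reason for the list, and the wild-type library is shared with the comparison that chose it. With a pseudocount of 1 the ratio of *Mfap5* was 0.90, and *Mgp* alone was called. The median difference was 0.29 over the 10 genes, 0.12 over the 6 others and 0.0026 over all genes tested. For the proteoglycans *Dcn*, *Lum* and *Bgn*, the tw18/+ and wild-type values lay within a log2 ratio of -0.34 to 0.18.

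**Figure D3:**
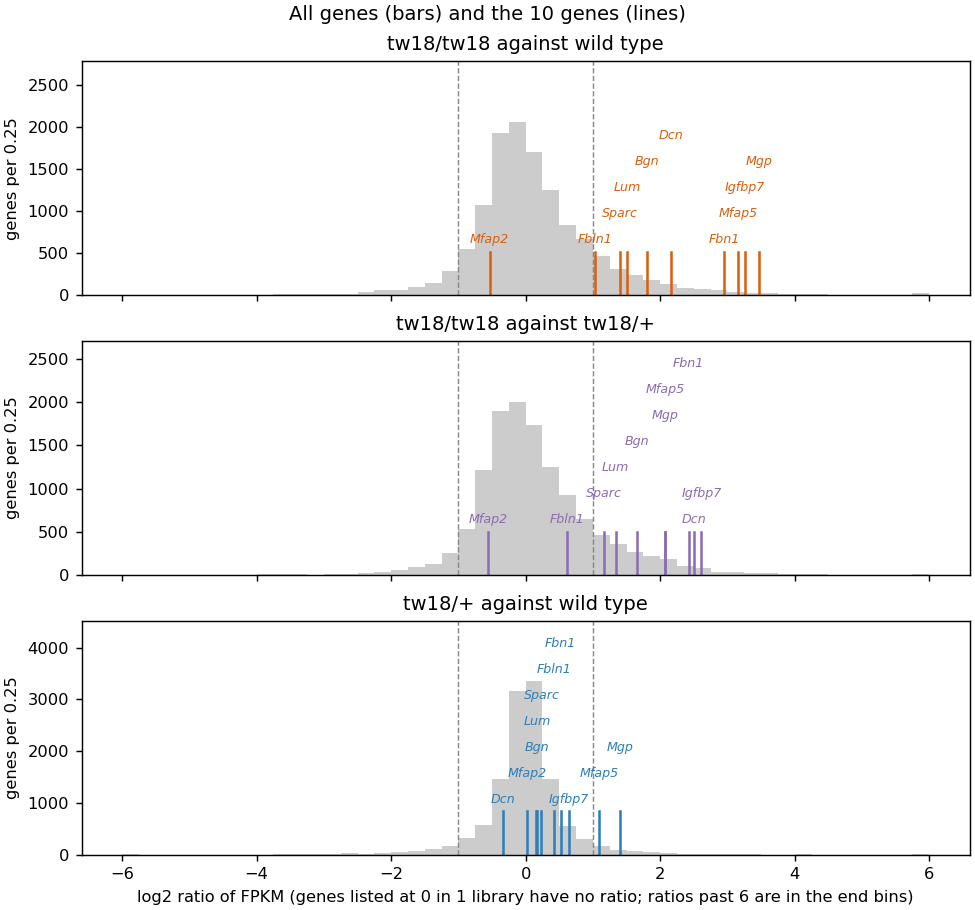
Number of genes per 0.25 of log2 ratio, over genes that reach 1 FPKM in either library of a comparison, with the 10 genes as coloured lines and the threshold of 1 dashed. In tw18/tw18 against wild type 9 of the 10 lines lie to the right of the threshold, and in tw18/+ against wild type 2 do.

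The sequences just upstream of the transcription start were available for 6 of the 10 genes (RefSeq, GRCm38.p6), and 3 are shown: those of *Igfbp7* and *Bgn*, which were higher in tw18/tw18, and that of *Mfap2*, which was not. Each is the 250 bases before an annotated start, and capitals mark matches on either strand to a GC box, spelled GGGCGG, or to a CCAAT box. Matches that overlap run together.
*Igfbp7*, chr5:77408046-77408295, minus strand: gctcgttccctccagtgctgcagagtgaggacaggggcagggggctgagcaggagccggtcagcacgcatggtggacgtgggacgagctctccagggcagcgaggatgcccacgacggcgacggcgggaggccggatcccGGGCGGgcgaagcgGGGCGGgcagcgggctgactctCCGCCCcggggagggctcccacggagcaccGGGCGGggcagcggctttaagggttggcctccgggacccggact
*Bgn*, chrX:73483351-73483600, plus strand: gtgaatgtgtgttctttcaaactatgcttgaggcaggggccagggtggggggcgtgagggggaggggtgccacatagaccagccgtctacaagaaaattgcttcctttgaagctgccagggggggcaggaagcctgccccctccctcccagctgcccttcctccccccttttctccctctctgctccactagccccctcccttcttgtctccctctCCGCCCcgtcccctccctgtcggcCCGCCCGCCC
*Mfap2*, chr4:141010174-141010423, plus strand: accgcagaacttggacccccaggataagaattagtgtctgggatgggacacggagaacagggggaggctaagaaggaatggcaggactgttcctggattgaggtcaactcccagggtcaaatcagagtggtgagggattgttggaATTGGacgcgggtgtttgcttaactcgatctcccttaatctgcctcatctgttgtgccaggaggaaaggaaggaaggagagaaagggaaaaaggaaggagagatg
GC boxes were found 4 times for *Igfbp7* and 3 times for *Bgn*, and the *Mfap2* sequence holds 1 CCAAT box and 0 GC boxes. A second annotated start of *Mfap2* has 2 GC boxes. Over the 8 sequences of the 6 genes, 5 held a GC box, against 32.7% of 32851 sequences of all genes, and 1 held a CCAAT box, against 33.8%. The TATA box, searched as TATAAA, was found in 0 of the 8, against 12.4% of all sequences. An AP-1 site, searched as TGANTCA, was found in 0 as well, against 6.75%. The *Sparc* sequence held 0 of these motifs. No entry was found for *Mgp*, *Mfap5*, *Dcn* and *Lum*.

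The other genes of the same classes were listed by class from general knowledge, though with earlier results of these data known. The table holds 78 of them. Of these, 43 reached an FPKM of 1 in tw18/tw18 or wild type. Among the 43, 19 were called higher in tw18/tw18 and 4 lower, where 15.1% of all genes tested were higher and 6.94% lower. The median difference of log2(FPKM + 1) was 0.68 over the 43 tested and 0.32 over all 78, against -0.0074 over all genes tested. Against tw18/+, 25 of 43 tested were higher and 2, *Spock2* and *Thbs3*, lower, where 14.9% of all genes were higher and 5.65% lower. Between tw18/+ and wild type 4 of 38 tested were higher (*Sparcl1*, *Tgfbi*, *Spp1* and *Efemp1*) and 5 lower (*Lgals3*, *Postn*, *Fbn2*, *Ltbp3* and *Lox*). These few are named after their values were seen. In that comparison 4.7% of all genes tested were higher and 5.02% lower.

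Among 27 other matricellular genes, 16 were tested. Of these, 7 were higher in tw18/tw18 than in wild type and 2 lower, where 15.1% of all genes were higher and 6.94% lower. *Tgfbi*, which encodes an integrin-binding matrix protein, had 2.79 FPKM in wild type, 5.83 in tw18/+ and 18.5 in tw18/tw18, a log2 ratio of 2.73. *Lgals1*, for galectin-1, had 43.4, 58.5 and 122. Of the relatives of *Sparc* in the SPARC family, *Sparcl1* had FPKM values of 0.093, 1.33 and 7.57, *Smoc1* 6.21, 6.77 and 16.3, and *Smoc2* 2.97, 4.54 and 13.1, each highest in tw18/tw18. *Fstl1* had 26.8, 17.0 and 47.5, and *Spock1* 1.30, 1.28 and 1.61, with ratios under the threshold against wild type. The 2 lower genes were *Spock2*, also of the SPARC family, at 6.20, 5.96 and 1.79, and *Thbs3*, at 6.19, 5.18 and 2.54. *Spock2* and *Thbs3* had their lowest value in the library in which *Sparc* had its highest.

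Of 36 other microfibril and elastic fibre genes, 24 were tested. Of these, 11 were higher in tw18/tw18 than in wild type and 1 lower, where 15.1% of all genes were higher and 6.94% lower. *Emilin1*, whose product binds elastin and fibulin, had 2.51 FPKM in wild type, 4.58 in tw18/+ and 19.3 in tw18/tw18, a log2 ratio of 2.94, close to that of *Fbn1*. *Fbn2*, the second fibrillin gene, had 1.12, 0.534 and 1.93, a log2 ratio of 0.79 that was not called. In wild type *Fbn1* had 1.69 FPKM to 1.12 for *Fbn2*, and in tw18/tw18 13.0 to 1.93. *Eln*, which encodes elastin, was under an FPKM of 1 in all libraries (0.364, 0.796 and 0.648).

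The relatives of *Fbln1* differed in level and in ratio. *Fbln2* had 2.84 FPKM in wild type, 1.99 in tw18/+ and 7.28 in tw18/tw18, and *Efemp1*, for fibulin-3, had 0.462, 1.78 and 5.74. Both were called higher in tw18/tw18. *Efemp2*, for fibulin-4, had 8.89, 12.8 and 15.6, a log2 ratio of 0.81, and *Fbln5* was under an FPKM of 1 throughout. The 1 lower gene was *Mfap4*, a microfibril-associated gene unrelated in sequence class to *Mfap2*, with 5.60, 2.88 and 1.999.

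Of 15 other small leucine-rich genes, 12 did not reach 1 FPKM in wild type or tw18/tw18. Of the 3 tested, *Podn* was higher in tw18/tw18 (1.05, listed at 0 in wild type) and *Omd* lower (2.61 in wild type, 1.22 in tw18/tw18). *Podn* lay just over the minimum of 1 FPKM. These calls are too few to set against the shares over all genes, 15.1% higher and 6.94% lower. *Fmod* had 0.967 in tw18/tw18 and was listed at 0 in both other libraries, and *Ogn* had 0.029, 0.225 and 0.883. *Bgn* and *Dcn* were thus the small leucine-rich genes with the highest values in tw18/tw18, at 69.9 and 17.8.

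**Figure D4:**
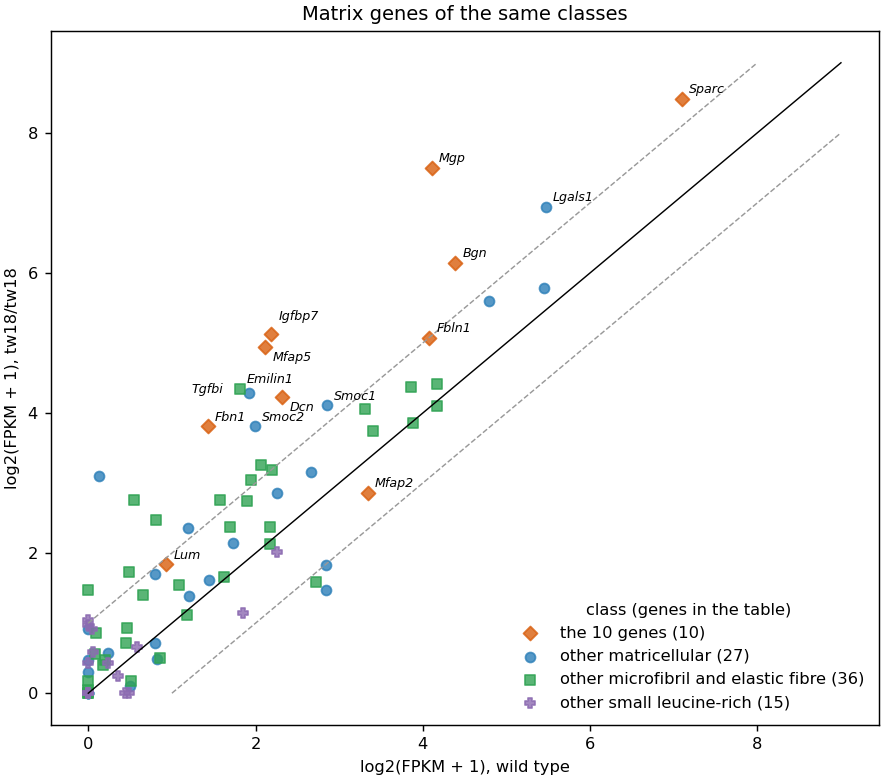
Log2(FPKM + 1) in tw18/tw18 against wild type for the 10 genes and 78 others of the same classes, with the line of equal values and dashed lines at a difference of 1. *Emilin1* and *Tgfbi* lie near *Dcn* and *Fbn1*, while *Mfap2* lies below the line of equal values.

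Genes that act on these proteins were looked at next. For the Gla proteins related to *Mgp* and the enzymes of vitamin K-dependent carboxylation, 2 of 12 were higher in tw18/tw18 than in wild type (*Prrg1* and *Prrg3*) and 1 lower (*Prrg2*), where 10 were tested and 15.1% of all genes tested were higher and 6.94% lower. *Ggcx*, the carboxylase that modifies matrix Gla protein, had 5.80 FPKM in wild type, 4.70 in tw18/+ and 7.16 in tw18/tw18, and *Vkorc1*, which recycles vitamin K, had 56.3, 44.9 and 43.5. *Bglap*, for osteocalcin, was listed at 0 except for 0.328 in tw18/tw18. Among 17 genes that build the glycosaminoglycan chains of proteoglycans such as decorin and biglycan, 3 were higher (*Csgalnact2*, *Chsy3* and *Chst11*) and 1 lower (*Xylt1*), of 16 tested. Both counts are near the shares over all genes and are no result about these lists.

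Of 10 genes of the IGF-binding family other than *Igfbp7*, 8 were tested. Of these, 5 were higher in tw18/tw18 than in wild type and 1 lower, where 15.1% of all genes were higher and 6.94% lower. *Igfbp3* had 35.2 FPKM in wild type, 39.9 in tw18/+ and 96.5 in tw18/tw18, *Igfbp4* 25.5, 37.4 and 81.1, and *Igfbp5* 7.69, 8.06 and 16.6. *Igfbp6* and *Kazald1* were the other 2 higher genes. *Igfbp2*, the most abundant of the family in wild type and tw18/+, had 135.5, 140.4 and 71.8, a log2 ratio of -0.92 that was not called. *Htra1*, a secreted protease with an IGF-binding domain, had 46.8, 9.72 and 22.1, the 1 lower gene against wild type. *Igfbp7*, with a log2 ratio of 3.26, had a larger ratio than *Igfbp4* (1.67), *Igfbp6* (1.99) and *Igfbp3* (1.45), although its FPKM in tw18/tw18 was lower than those of *Igfbp3* and *Igfbp4*.

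The genes whose pattern over the 3 libraries was most like that of a member were found by the distance between their pairs of log2(FPKM + 1) differences, tw18/+ and tw18/tw18 each against wild type, among genes that reach 10 FPKM in tw18/tw18. For *Mfap5* they were *Dio3* (distance 0.15), *Hoxa11* (0.16) and *Ptges* (0.18), and for *Igfbp7* *Stra6* (0.24), *Dio3* (0.24) and *Hoxa11* (0.29). *Hoxa11* had 3.67 FPKM in wild type, 6.87 in tw18/+ and 30.8 in tw18/tw18, and *Dio3* 2.98, 5.69 and 27.5. *Mgp* had no gene as close, with *Spink8* (0.43), *Plk2* (0.49) and *Hsd3b6* (0.59) nearest. In wild type these 3 genes had only 0, 0.646 and 0.884 FPKM, where the added 1 largely sets the difference, against 16.2 for *Mgp*. The nearest to *Sparc*, at smaller distances, were *Trim3* (0.021), *Cd209c* (0.031) and *A930005H10Rik* (0.038). These are likenesses over 3 libraries only.

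Markers of several other tissues moved with the 10 genes, and their part in the results was not tested. The counts below stand beside 15.1% of all genes tested that were higher in tw18/tw18 than in wild type and 6.94% lower. Of 13 fibroblast and stroma markers, 11 were tested, 8 were higher in tw18/tw18 than in wild type and 0 lower. Their summed FPKM was 167 in wild type, 149 in tw18/+ and 548 in tw18/tw18. *Col1a1* had 35.9, 32.0 and 174, and *S100a4* 70.1, 58.0 and 193.6, while *Dpt* was listed at 0 in all libraries. *Col1a1* was lowest in tw18/+ and highest in tw18/tw18, as *Dcn* was. The tw18/+ log2 ratios against wild type were small, -0.16 for *Col1a1* and -0.34 for *Dcn*, whose counting interval includes 0. *Col1a2*, *Col5a1*, *Col6a3*, *Pdgfrb*, *Thy1*, *Vim* and *S100a4* had the same order, while *Col3a1*, *Col6a1*, *Pdgfra* and *Tcf21* were lowest in wild type.

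All 14 decidua markers were tested, and 8 were higher in tw18/tw18 than in wild type and 4 lower. Against tw18/+, 11 were higher and 0 lower, where 14.9% of all genes were higher and 5.65% lower. Other lists had like counts in that comparison. Of 14 endothelial markers tested 11 were higher and 0 lower, and of 12 fibroblast and stroma markers tested 9 were higher and 1 lower. The 14 decidua markers summed to 1884, 348 and 962 in wild type, tw18/+ and tw18/tw18. The decidual prolactin genes *Prl8a2*, at 1504, 155 and 377, and *Prl3c1*, at 121, 13.2 and 25.2, were highest in wild type, and *Erv3* and *Adamts5* were the other 2 lower genes. In contrast *Des*, which encodes desmin, had 45.5, 65.9 and 201, and *Hoxa10*, named after its value was seen, had 7.64, 11.8 and 32.9. The order of *Prl8a2* over the libraries was not that of any of the 10 genes. *Des*, *Hoxa10* and *Hoxa11* rose from wild type to tw18/+ to tw18/tw18, as did all of the 10 genes except *Dcn* and *Mfap2*. *Hand2* (27.5, 16.3 and 63.0), *Pgr* (5.08, 3.36 and 11.2), *Bmp8a* (1.10, 0.571 and 3.71) and *Cryab* (93.8, 48.6 and 167) had the order of *Dcn*, lowest in tw18/+ and highest in tw18/tw18. None of the 14 decidua markers was listed at 0.

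All 13 parietal endoderm markers were tested, and 8 were higher in tw18/tw18 than in wild type and 0 lower. The shares over all genes were 15.1% and 6.94%. Against tw18/+, only 2 were higher (*Pth1r* and *Pga5*) and 0 lower, where 14.9% of all genes were higher and 5.65% lower. The sums were 440 in wild type, 502 in tw18/+ and 946 in tw18/tw18. *Col4a1* stood at 86.8, 94.0 and 174.0 FPKM, and *Lamc1* 62.9, 82.5 and 155.5, both with the order of *Sparc*. In visceral endoderm, which was part of the dissected tissue, all 13 markers were tested. Against wild type 1 (*Soat2*) was higher and 0 lower, below the shares over all genes. The sums were 1027, 1007 and 1316, with *Apoa1* (246, 233 and 337) and *Rbp4* (83.8, 79.0 and 159.2) the highest in tw18/tw18. *Afp* went the other way, at 106, 110.3 and 59.5. None of the 26 markers of these endoderm lists was listed at 0.

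All 14 endothelial markers were tested, and 8 were higher and 0 lower (sums 69.8, 55.2 and 140.2), where 15.1% of all genes were higher and 6.94% lower. *Cdh5* stood at 23.2, 12.9 and 38.8 and *Egfl7* at 16.6, 18.7 and 23.2. Among 11 pericyte and smooth muscle markers, 7 were tested, 5 were higher and 1, *Cnn1*, lower (sums 67.4, 91.2 and 255). *Des*, given above with the decidua markers, made up most of these sums, and *Rgs5* had 1.80, 2.49 and 12.7. The vessel-associated lists therefore also had their highest sums in tw18/tw18. Immune markers summed to 29.9, 20.6 and 48.3. Of 14, 10 were tested, 4 were higher (*Fcer1g*, *Gzmb*, *C1qb* and *Lyz2*) and 2 lower (*Cd52* and *Coro1a*). *Lyz2* had 3.77, 2.85 and 13.1 and *Csf1r* 10.7, 4.02 and 8.06. Of 9 erythroid markers in the table, *Hbb-bs*, *Hba-a2* and *Alas2* were higher, *Hba-a1* was lower and 5 were listed at 0 in all libraries, with sums of 52.5, 56.3 and 177. *Hba-a1* and *Hba-a2* are almost the same in sequence, so their separate values are uncertain.

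Among 13 extra-embryonic ectoderm markers, 12 were tested, 11 were higher in tw18/tw18 than in wild type and 0 lower (sums 107, 120.6 and 224). Over all genes tested, 15.1% were higher and 6.94% lower. The highest were *Rhox5* (81.1, 87.9 and 154.8) and *Tfap2c* (6.36, 5.99 and 18.4). Of 11 extra-embryonic mesoderm markers, 7 were tested, 6 were higher and 1, *Etv2*, lower (sums 23.0, 25.9 and 89.8). *Ahnak* stood at 4.71, 4.99 and 36.5 and *Hand1* at 9.31, 14.0 and 34.6. Of 9 trophoblast giant cell markers 6 were tested, and their calls went both ways. *Prl3d2* and *Hand1* were higher and *Prl2c2* and *Prl4a1* lower (sums 168, 95.8 and 320). *Prl3d1* had 113, 61.5 and 202, while *Ctsq* and *Ctsj* were listed at 0. *Hand1* is in both of the last lists, and *Des* in the decidua and pericyte lists. All of these extra-embryonic sums were highest in tw18/tw18.

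The embryonic lists went the other way. All 13 epiblast markers were tested, and 5 were lower in tw18/tw18 (*Pou5f1*, *Nanog*, *Sox2*, *Dnmt3b* and *Tdgf1*) and 0 higher. Over all genes tested, 6.94% were lower and 15.1% higher. The sums were 2030 in wild type, 2155 in tw18/+ and 1112 in tw18/tw18. *Dnmt3b* stood at 719, 733 and 359 FPKM, and *Pou5f1* 628, 721 and 274. Of 12 primitive streak markers, 11 were tested, 8 were lower and 0 higher, with sums of 237, 165 and 112. *Eomes* had 77.1, 58.0 and 37.0 and *Lhx1* 28.8, 24.4 and 32.8. *Mfap2* was the only one of the 10 matrix genes to share the direction of these lists.

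**Figure D5:**
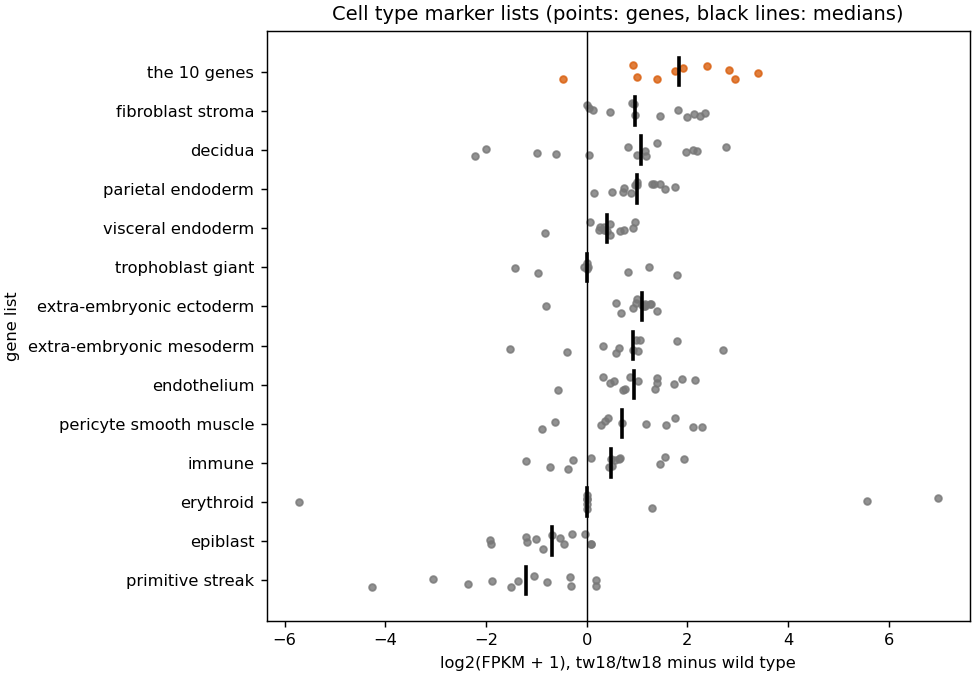
Difference of log2(FPKM + 1), tw18/tw18 minus wild type, for each gene (points) of the 10 matrix genes and of 13 lists of cell type markers, with the median as a black line. Medians are over all genes of a list, unexpressed ones included. The largest of a marker list was 1.11, for extra-embryonic ectoderm. Those of decidua (1.08), parietal endoderm (0.99), fibroblast (0.95), endothelium (0.94) and extra-embryonic mesoderm (0.92) lie close to it. Those of epiblast and primitive streak markers lie below 0. The 10 genes, chosen on this comparison, had 1.84, and the 6 not named as the reason for the list 1.38. Over genes that reach an FPKM of 1 in either library, the erythroid median was 3.43 (4 genes), pericyte 1.57 and fibroblast 1.45.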

How the data were processed

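Total RNA of E6.5 embryos was sequenced as strand-specific 50 bp paired-end libraries with the TotalScript kit. Per the labels and methods, reads were aligned to mm10 (GRCm38), and the submitters' notes name TopHat2, Bowtie 1.0.0 and Cufflinks 2.2.1. The authors took FPKM values from Cuffdiff and deposited them as 1 table of gene symbols by 3 genotypes. The gene annotation and the library normalization are not given in the sources used here. FPKM is relative to the rest of its library, so rescaling to equal FPKM sums would raise every log2 ratio of tw18/tw18 against wild type by 0.21.

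Ratios were computed without a pseudocount in Python 3.11.15 (numpy 2.4.6, pandas 2.3.3, scipy 1.17.1), and plots were drawn with matplotlib 3.10.9. Groups came from the genotype labels, and no test was made, since each group has 1 library. The depth was estimated from low values of genes with 1 annotated transcript, with 150 bp allowed for the fragment length. Fragment numbers used the longest principal coding transcript of GENCODE M21, and intervals are exact binomial (Clopper-Pearson) and exact Poisson. The code for the calls and the depth estimate was run on simulated data with counting error only, large changes and low values at exact steps. This checked the code, and not the calls near the threshold or at low FPKM in single libraries. The members and lists were chosen with earlier results of these data known. Named genes were the members, their nearest paralogs, genes of the related lists with an FPKM of at least 10 and a log2 ratio of at least 1, the 3 nearest genes by pattern and the 2 highest of each marker list; other names were added after their values were seen. Alternatives changed the pseudocount (0.1 and 1), the filter on low values, the log2 threshold (2) and the scaling (3 ways).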

Additional observations from a re-analysis of the deposited data

How the results depend on the processing

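No paired analysis was possible because each genotype has 1 library, and no library could be left out for the same reason. Of 150 alternative values for the ratios of single members, 144 kept their direction and their side of the threshold of 1, 4 with a pseudocount of 1 fell under it (*Fbln1* and *Lum* in tw18/tw18 against wild type, *Lum* against tw18/+, *Mfap5* in tw18/+), and 2 reversed. These were the ratio of *Mfap2* in tw18/+ against wild type, from 0.024 to -0.012 with equal FPKM sums and -0.017 with equal sums without *Lars2*. The shares over all genes given above hold for the threshold of 1 and the minimum of 1 FPKM only. No such shares were computed for the alternatives, so the counts below describe only how the calls moved. For tw18/tw18 against wild type, a log2 threshold of 2 left 5 members higher, and 9 of the related genes higher and 0 lower. The related genes higher were 12 with a minimum FPKM of 5 and 34 without a filter, which also gave 8 lower. The median of the members went from 1.84 to 1.97 with a pseudocount of 0.1, 2.04 with equal sums, 2.01 without *Lars2*, 1.88 after centring on the median and 1.38 for the 6 members not singled out. For tw18/tw18 against tw18/+, the threshold of 2 left 5 members higher, and 8 related genes higher and 0 lower. Related genes higher were 16 with the minimum of 5 and 39 without a filter (9 lower), and 1 was lower with a pseudocount of 1, both equal sums and centring. The median of 1.77 became 1.85, 2.01, 1.98, 1.81 and 1.22 in the order above. For tw18/+ against wild type, 1 member was higher with a pseudocount of 1 and 0 at the threshold of 2. Of the related genes, 2 were higher and 2 lower with a pseudocount of 1, 1 and 2 with the minimum of 5, 16 and 12 without a filter, and 2 and 0 at the threshold of 2. The median of 0.29 became 0.33 with a pseudocount of 0.1, 0.26 with either rescaling to equal sums and 0.12 for the 6 members. The related genes were thus sensitive to the filter because many of them lie under an FPKM of 1. Depth limits *Lum* most, with about 31 fragments in wild type.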
